A study of Mus musculus with 16 samples.

Results

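The transcription factors described here are those that commit precursor cells to the T lineage and carry thymocytes through their stages: Gata3, Runx1, Myb, Ikzf1 (Ikaros), Tcf7 (TCF-1), Lef1, Ets1, Ets2 and Sox4. They were chosen by name, and every probe set whose single annotated gene was one of them was taken. This gave 13 probe sets for 8 of the 9 genes, out of 10833 single-gene probe sets for 8251 genes. No probe set carried Tcf7 as its single annotated gene, so Tcf7 was not analysed here.

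These factors act in layers. Gata3, a zinc finger protein, and the HMG-box proteins TCF-1 and LEF-1 act early in T lineage choice and again when double-positive cells turn to the CD4 fate, and LEF-1 and TCF-1 bind β-catenin. Runx1 works with the partner CBFβ and silences Cd4 in immature thymocytes, Myb is needed for survival and receptor gene rearrangement in double-positive cells, and Ikaros is a zinc finger protein that restrains Notch target genes and sets the threshold of T cell receptor (TCR) signals. Ets1 and Ets2 share the ETS DNA-binding domain and are targets of the MAP kinase cascade, and Sox4 is an HMG-box protein of immature lymphocytes.

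Each of the 16 Affymetrix mouse arrays had been hybridised with RNA of double-positive (CD4+CD8+) thymocytes, grown in fetal thymic organ culture, a dish culture of embryonic thymus lobes. The labels gave 6 groups: BDC2.5 transgenic cells on the NOD background at 16 h of peptide (n = 3), the same without peptide (n = 3), wild-type NOD cells (n = 2), BDC2.5 cells on the B6g7 background at 16 h of peptide (n = 3), the same without peptide (n = 3) and wild-type B6g7 cells (n = 2). The BDC2.5 transgenes encode a TCR taken from a CD4 T cell clone that causes diabetes. NOD is the strain that becomes diabetic by autoimmunity, and B6g7 is C57BL/6 with the MHC haplotype of NOD. Neither the peptide, its dose nor the age of the embryos is labelled, nor whether wild-type cultures had peptide, and nothing says that replicates came from separate animals, so p-values may measure technical spread only.

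The deposited intensities are on a linear scale, with array medians between 54.7 and 59.1. All 9 measured of 12 double-positive markers, among them Cd4, Cd8a and Rag1, lay above the array median on every array. Markers of other cells were also measured: 6 of 10 B cell, 4 of 14 myeloid and dendritic, 2 of 9 thymic epithelial, 4 of 10 mesenchymal and endothelial, 1 of 5 erythroid and 1 of 7 NK and innate lymphocyte markers lay above the median on every array. The table holds no value at 0 (lowest 7.77) and no detection calls, so no marker could be called absent. Arrays numbered 3 (BDC2.5) or 2 (wild-type), named the third-number arrays below, stood apart: the 3' minus 5' signal of beta-actin was 1.36 to 1.96 on the log2 scale in these 6, against 2.24 to 3.27 in the other 10. Since they make up 1 array of 3 where cells are BDC2.5 but 1 of 2 where they are wild-type, transgene comparisons are not balanced for them.

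None of the 13 probe sets passed the test in any comparison. The test was limma across all 12422 probe sets, with a call at a Benjamini-Hochberg adjusted p under 0.05. The share of all probe sets called was 0% for the peptide response in NOD, 0.00805% for that in B6g7, 0.0242% for their mean and 0% for the difference between the responses. For NOD minus B6g7, the strain difference, it was 0.266% in cells without peptide, 0.491% for that at 16 h and 0.0886% for that in wild-type cells. For the transgene difference, taken as BDC2.5 cells not given peptide minus wild-type cells, it was 0.0564% in NOD and 0.0805% in B6g7. With shares this low, 0 of 13 is near the background and is no result about the members. At an unadjusted p under 0.05 the members had 0 probe sets for the peptide response in NOD (1.67% of all), 1 for that in B6g7 (3.4%), 1 for the mean response (3.58%) and 0 for the difference between responses (1.18%). They had 2 for the strain difference without peptide (3.45%), 2 for that at 16 h (5.68%), 0 for that in wild-type cells (2.09%), 1 for the transgene difference in NOD (2%) and 1 for that in B6g7 (1.49%). These 8 results belonged to Ets2, Runx1 and the dimmer probe set of Ets1.

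**Figure D1:**
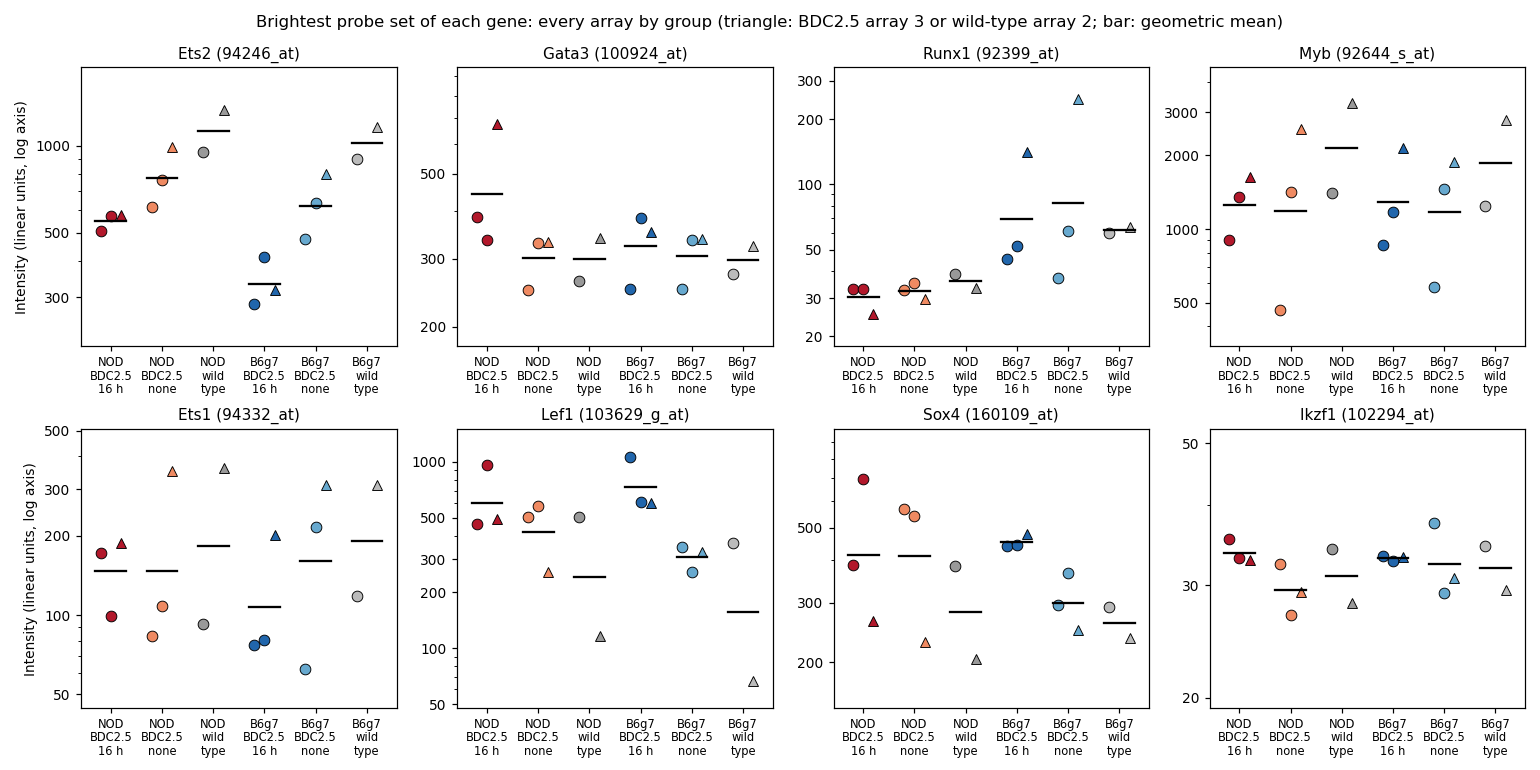
Intensity of the brightest probe set of each gene on every array (vertical log axis, linear intensity units), by group. Triangles are the third-number arrays and bars the geometric means: for Ets2 the arrays at 16 h of peptide lie below those without peptide in both strains, while for Myb and Ets1 the triangle is the highest array of its group in all 6 groups.

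Ets2 is an ETS factor downstream of MAP kinase signals. In both strains its group means were lowest at 16 h of peptide, higher without peptide and highest in wild-type cells. This order was found in 10% of all probe sets. In NOD the intensities of the Ets2 probe set were 509, 572 and 577 at 16 h of peptide, against 615, 759 and 986 without peptide. In B6g7 they were 285, 413 and 318 at 16 h of peptide, against 475, 634 and 797 without peptide. In neither strain did the peptide arrays overlap with the arrays without peptide. That each peptide array was lower than the same-numbered array without peptide in 6 of 6 pairs follows from this and adds nothing. Of all probe sets, 3.2% were lower with peptide with no overlap in NOD and 3.03% in B6g7. Of all probe sets, 0.306% were lower with peptide with no overlap in both strains, and 3.09% were lower in all 6 pairs, a looser measure. Wild-type cells had 953 and 1328 in NOD and 900 and 1158 in B6g7.

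The log2 difference of Ets2 with peptide was -0.49 ± 0.25 in NOD (a ratio of 0.714, adjusted p = 1) and -0.89 ± 0.25 in B6g7 (a ratio of 0.538, adjusted p = 0.929), where ± is the standard error of the fit. The mean response was -0.69 ± 0.17 (95% interval -1.06 to -0.32, unadjusted p = 0.00149, adjusted p = 0.554 by limma). This was rank 32 of 12422 by p. The difference between the responses (NOD minus B6g7) was 0.41 ± 0.35 (adjusted p = 1), with an interval from -0.34 to 1.16. It was 0.23 when array 3 of B6g7 cells without peptide was left out, and 0.60 when array 1 was. Without the third-number arrays, the value was -0.34 ± 0.25 in NOD and -0.68 ± 0.25 in B6g7. Without the NOD no-peptide array numbered 3 the NOD value was -0.31. In bulk RNA, fewer cells that hold a transcript and less of it per cell cannot be told apart. The summed intensity of the 9 double-positive markers also differed between the groups: it was 7021 to 8359 in NOD at 16 h of peptide, against 7464 to 13335 without peptide and 10497 to 15902 in wild-type NOD. In B6g7 it was 6058 to 9706 at 16 h of peptide, against 10298 to 11842 without peptide and 14012 to 17809 in wild-type cells. Their part in the Ets2 values was not tested.

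Between BDC2.5 cells without peptide and wild-type cells, the Ets2 difference was -0.54 ± 0.27 in NOD (unadjusted p = 0.0691 by limma) and -0.72 ± 0.27 in B6g7 (unadjusted p = 0.0212 by limma), with adjusted p = 0.999 and 1. The NOD groups overlapped and the B6g7 groups did not, and 6.91% of all probe sets were lower with no overlap in B6g7. Without the third-number arrays, which leaves 1 wild-type array per strain, the values were -0.48 and -0.71. Group means were lower with peptide than without and lower without peptide than in wild-type cells, in both strains, in 10% of all probe sets. Among the 13 member probe sets this held for 1, that of Ets2, which is near that share. Without the wild-type NOD array numbered 2, the NOD difference was -0.30. The strain difference of Ets2 was 0.72 ± 0.25 at 16 h of peptide (adjusted p = 0.543 by limma), 0.31 ± 0.25 without it and 0.14 ± 0.30 in wild-type cells (adjusted p = 1 for both). The value without peptide was 0.12 without the B6g7 array numbered 1 and 0.49 without that numbered 3. The wild-type value was -0.10 without the NOD array numbered 2 and 0.38 without that numbered 1. At 16 h, all 3 NOD arrays were above all 3 B6g7 arrays, as 6.45% of all probe sets were. In the order of the 6 groups, each neighbour overlapped with the next except the last pair, NOD and B6g7 at 16 h of peptide.

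The Ets2 promoter is shown because Ets2 had the smallest p among the members for the peptide response in B6g7 and for the mean response. It is the 250 bases before the annotated start, at chr16:95702157-95702406 on the + strand (RefSeq, GRCm38.p6). It was searched on both strands for 7 short motifs of the families themselves. For the ETS family the letters were CCGGAA, and for RUNX proteins they were TGTGGT. The TCF and LEF proteins were given CTTTGA, the GATA proteins AGATAA and MYB proteins the looser CAACNG. Ikaros was searched as TGGGAA, and the SOX family as AACAAT. No window of the members held more than 1 of these motifs, so no matches of different motifs overlapped. None of the 7 was found in this window, which says only that these letters are not in it.
Ets2 promoter: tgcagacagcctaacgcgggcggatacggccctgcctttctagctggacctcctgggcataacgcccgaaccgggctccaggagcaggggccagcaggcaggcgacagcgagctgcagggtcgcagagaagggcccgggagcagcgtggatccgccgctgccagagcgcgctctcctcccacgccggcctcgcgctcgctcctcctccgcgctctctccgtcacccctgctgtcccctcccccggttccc

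Gata3, which drives CD4 lineage choice, had overlapping arrays between all neighbours in the order of the group means, and its highest value was 1 array of NOD cells with peptide. In NOD, its probe set had 385, 337 and 677 at 16 h of peptide, against 249, 330 and 332 without peptide. In B6g7 it had 251, 384 and 352 at 16 h of peptide, against 251, 337 and 338 without peptide. Wild-type cells had 264 and 341 in NOD and 274 and 325 in B6g7. The NOD peptide arrays lay above the NOD arrays without peptide, as did 2.33% of all probe sets, and the highest was the third-number array. The log2 difference with peptide was 0.56 ± 0.27 in NOD (adjusted p = 1) and 0.08 ± 0.27 in B6g7 (adjusted p = 1). The difference between the responses was 0.48 ± 0.38 (95% interval -0.33 to 1.29), and 0.18 without the NOD peptide array numbered 3. Without the NOD peptide array numbered 3, the NOD value was 0.26.

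Runx1 was lower on NOD than on B6g7 arrays in each of the 3 strain comparisons, by 1 probe set that lay between 25.3 and 63.9 on 14 of the 16 arrays and at 141 and 247 on the others. NOD cells had 33.0, 33.0 and 25.3 at 16 h of peptide, against 45.4, 52.1 and 141 in B6g7 cells. Without peptide NOD cells had 32.6, 35.0 and 29.7, against 37.1, 61.1 and 247 in B6g7 cells. Wild-type NOD cells had 38.9 and 33.6, against 59.7 and 63.9 in wild-type B6g7 cells. No strain pair overlapped, and 5.39% of all probe sets were lower with no overlap in NOD at 16 h, 2.37% without peptide and 14.3% in wild-type cells. The log2 difference was -1.20 ± 0.54 at 16 h (unadjusted p = 0.0429, adjusted p = 0.836 by limma), -1.35 ± 0.54 without peptide (unadjusted p = 0.0252, adjusted p = 1 by limma) and -0.77 ± 0.66 in wild-type cells (adjusted p = 1).

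The size of the Runx1 difference rested on a pair of arrays. The B6g7 third-number arrays of BDC2.5 cells gave 141 and 247, while that of wild-type B6g7 gave 63.9. Without the third-number arrays the strain difference was -0.56 ± 0.21 at 16 h and -0.50 ± 0.21 without peptide (adjusted p = 0.823 and 0.828 by limma). In wild-type cells it was -0.62, from only 1 array per strain. Without the B6g7 no-peptide array numbered 3 alone, the difference without peptide was -0.56, and without the B6g7 peptide array numbered 3 alone that at 16 h was -0.69. Only 5 of 16 Runx1 values were above their array's median, all in B6g7. The files give no detection calls for the others. The peptide response was -0.10 ± 0.54 in NOD and -0.25 ± 0.54 in B6g7, and the B6g7 value turned to 0.54 once array 3 of the B6g7 cells without peptide was left out.

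Runx1 is transcribed from a distal and a proximal start, which give proteins with different first residues, and the files do not say which transcript the probe set reads. Both promoters are shown for this reason, as the 250 bases before each annotated start on the - strand of chromosome 16 (RefSeq, GRCm38.p6), with motif matches in capitals. The distal window, chr16:92826075-92826324, holds 1 MYB match 167 bases before the start, and 29.3% of all 32851 promoter windows hold that motif. The proximal window, chr16:92697330-92697579, holds 1 ETS match 106 bases before the start, a motif in 12% of all windows. The promoter table holds no window of Ets1. The 7 measured genes other than Ets1, with Runx1 included, had 12 windows. The ETS motif was in 2 of these and MYB in 2, each time with a Runx1 window among them. TCF/LEF was in 1 (13.8% of all windows) and Ikaros in 1 (21.6%). RUNX (14%), GATA (9.99%) and SOX (9.42%) were in 0.
Runx1 distal promoter: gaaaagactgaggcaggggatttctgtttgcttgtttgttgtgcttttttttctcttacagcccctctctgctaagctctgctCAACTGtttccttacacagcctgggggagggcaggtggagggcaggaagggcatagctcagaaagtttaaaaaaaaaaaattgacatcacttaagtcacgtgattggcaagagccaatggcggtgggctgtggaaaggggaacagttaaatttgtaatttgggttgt
Runx1 proximal promoter: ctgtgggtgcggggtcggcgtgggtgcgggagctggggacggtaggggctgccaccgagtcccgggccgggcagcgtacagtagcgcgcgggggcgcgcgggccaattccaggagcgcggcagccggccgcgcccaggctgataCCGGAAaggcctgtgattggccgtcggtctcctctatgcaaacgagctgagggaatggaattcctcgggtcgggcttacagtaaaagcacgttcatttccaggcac

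Myb and Ets1 varied several-fold among arrays of the same group, and their groups overlapped in every comparison by the brighter probe set. For Myb, the brighter probe set had 902, 1347 and 1626 in NOD at 16 h of peptide, against 465, 1415 and 2561 without peptide and 1406 and 3271 in wild-type NOD. In B6g7 it had 862, 1174 and 2145 at 16 h of peptide, against 580, 1461 and 1887 without peptide and 1247 and 2790 in wild-type cells. The third-number array was the highest of its group in 6 of 6 groups. It exceeded the mean of the others by 0.56 to 1.66 on the log2 scale. By that looser measure, 13.6% of all probe sets were higher in 6 of 6 groups. The log2 difference with peptide was 0.08 ± 0.62 in NOD and 0.15 ± 0.62 in B6g7, and the transgene difference was -0.85 ± 0.69 in NOD and -0.67 ± 0.69 in B6g7 (adjusted p at or above 0.999 for each). With 1 wild-type or no-peptide array left out, the transgene difference lay between -1.46 (without the wild-type NOD array numbered 1) and -0.17 (without the NOD no-peptide array numbered 1) in NOD. In B6g7 it lay between -1.25 and -0.09, without the wild-type array numbered 1 or 2. With the replicate number as a block, the standard error of the Myb peptide response was 0.25, and the transgene difference was -1.21 ± 0.29 in NOD (adjusted p = 0.278 by limma) and -1.04 ± 0.29 in B6g7 (adjusted p = 0.698 by limma). The block sets wild-type arrays numbered 2 beside BDC2.5 arrays numbered 2. With the third-number arrays as a covariate instead, the values were -0.66 ± 0.43 and -0.49 ± 0.43. The dimmer Myb probe set lay between 13.3 and 16.6, below the median of every array, and gave no usable level.

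For Ets1, the brighter probe set had 172, 99.4 and 188 in NOD at 16 h of peptide, against 83.4, 108 and 351 without peptide and 92.8 and 362 in wild-type NOD. In B6g7 it had 76.9, 80.3 and 201 at 16 h of peptide, against 62.2, 216 and 311 without peptide and 118 and 311 in wild-type cells. Again the third-number array was the highest in 6 of 6 groups. It exceeded the mean of the others by 0.52 to 1.96 on the log2 scale. The within-group standard deviation of Ets1 was 1.0 on the log2 scale, higher than in 99.2% of all probe sets, and that of Myb was 0.86, against a median of 0.18 over all probe sets. The peptide response of this probe set was 0.01 ± 0.71 in NOD and -0.58 ± 0.71 in B6g7. The 95% intervals were -1.52 to 1.53 in NOD and -2.11 to 0.94 in B6g7. With the replicate block the standard error was 0.46, at the same differences (adjusted p = 0.999 in NOD and 0.892 in B6g7 by limma). Without the B6g7 no-peptide array numbered 1 the B6g7 value was -1.27, and without that numbered 3 it was -0.11.

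The dimmer Ets1 probe set had a narrow range. It read 52.3, 60.4 and 59.2 in NOD at 16 h of peptide, against 59.3, 68.2 and 72.7 without peptide and 54.3 and 49.2 in wild-type NOD. In B6g7 it read 49.5, 52.4 and 53.6 at 16 h of peptide, against 50.5, 48.7 and 52.1 without peptide and 46.6 and 48.0 in wild-type cells. Without peptide, all NOD arrays were above all B6g7 arrays, as 3.24% of all probe sets were, with a log2 difference of 0.40 ± 0.10 (unadjusted p = 0.0019, adjusted p = 0.296 by limma). The transgene difference was 0.36 ± 0.12 in NOD (unadjusted p = 0.00783, adjusted p = 0.999 by limma) and 0.09 ± 0.12 in B6g7. BDC2.5 arrays were above wild-type arrays with no overlap in both strains, as 6.19% of all probe sets were in NOD and 4.15% in B6g7, and NOD above B6g7 in wild-type cells, as 6.55% were. No member was lower with no overlap for the transgene difference in NOD, as 2.52% of all probe sets were. Without the third-number arrays, which leaves 1 wild-type NOD array, the NOD transgene value was 0.23. The brighter Ets1 probe set gave -0.13 ± 0.71 for the same strain difference. All values, from 46.6 to 72.7, lay around the array medians.

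**Figure D2:**
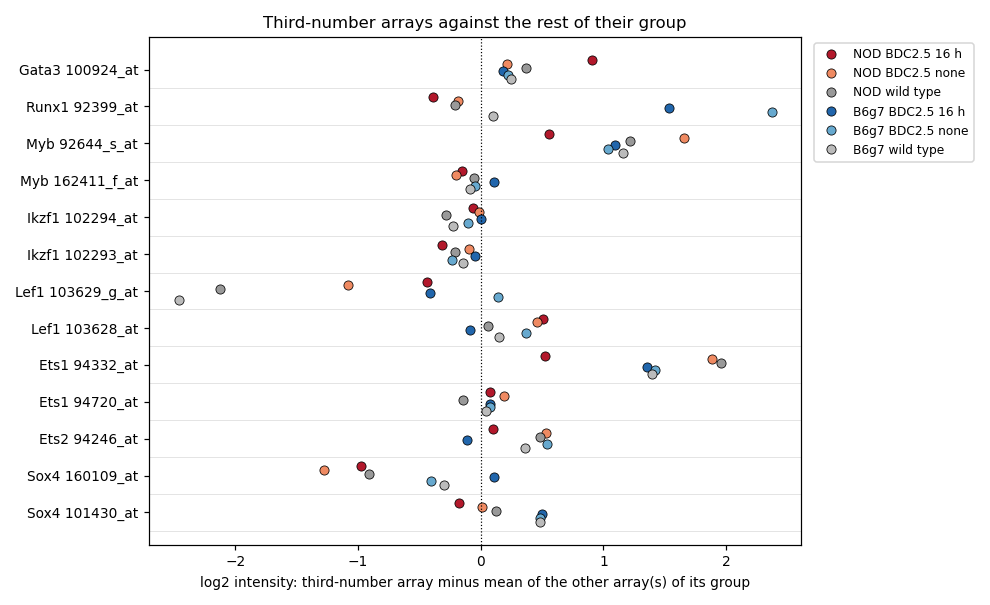
Log2 intensity of each group's third-number array minus the mean of the other arrays of that group (horizontal axis), for the 13 probe sets, with 1 point per group. For Gata3, the brighter Myb and the brighter Ets1 probe set all 6 points lie to the right of 0, and for the brighter Lef1 probe set 5 of 6 lie to the left.

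Lef1, which encodes an HMG-box protein as Tcf7 does, was read by a pair of probe sets that did not go together. By the brighter, NOD cells had 464, 965 and 495 at 16 h of peptide, against 508, 578 and 256 without peptide and 503 and 116 in wild-type cells. B6g7 cells had 1067, 607 and 603 at 16 h of peptide, against 350, 255 and 329 without peptide and 369 and 66.9 in wild-type cells. In B6g7 the peptide arrays did not overlap with those without peptide, as for 3.48% of all probe sets that were higher, and in NOD they did. The log2 difference with peptide was 0.52 ± 0.61 in NOD and 1.24 ± 0.61 in B6g7, a ratio of 2.37 (95% interval -0.08 to 2.56 on the log2 scale, unadjusted p = 0.0627, adjusted p = 1 by limma). The difference between the responses was -0.72 ± 0.87. Without the NOD no-peptide array numbered 3 the NOD value was 0.16 and the difference -1.09, and the difference was -0.45 without the B6g7 peptide array numbered 1. In the B6g7 peptide comparison, the summed intensity of the 14 myeloid and dendritic markers was 1070 to 1096 at 16 h, against 838 to 998 without peptide. In NOD that sum overlapped, at 1072 to 1235 against 1023 to 1325. The sum of the 9 double-positive markers also differed in B6g7, at 6058 to 9706 at 16 h against 10298 to 11842 without peptide. The part of these markers in the Lef1 values was not tested.

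The same Lef1 probe set was 1.43 ± 0.36 higher with peptide in B6g7 without the third-number arrays, and 0.30 ± 0.36 in NOD (adjusted p = 1 for each). The transgene difference, 0.81 ± 0.69 in NOD and 0.97 ± 0.69 in B6g7, rested on the wild-type arrays numbered 2, at 116 and 66.9. Without that array of its strain it was -0.25 in NOD and -0.26 in B6g7. The dimmer probe set stayed between 174 and 273 over all 16 arrays, with a response of 0.00 ± 0.21 in NOD and 0.09 ± 0.21 in B6g7. Both probe sets were designed on the same accession, and their values could not be averaged into 1 level for Lef1.

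Sox4, a factor of immature thymocytes, was read by a brighter and a dimmer probe set. By the brighter, B6g7 cells had 441, 445 and 479 at 16 h of peptide, against 296, 367 and 249 without peptide and 290 and 236 in wild-type cells. NOD cells had 388, 699 and 264 at 16 h of peptide, against 567, 541 and 229 without peptide and 386 and 205 in wild-type cells. In B6g7 the arrays at 16 h of peptide lay above those without peptide with no overlap, as for 3.48% of all probe sets, and all other pairs of Sox4 groups compared overlapped. The log2 difference with peptide was 0.01 ± 0.39 in NOD and 0.60 ± 0.39 in B6g7 (adjusted p = 1 for both by limma), and the difference between them was -0.59 ± 0.55. With array 3 of NOD cells left out, that difference was -0.26 for the peptide array and -1.01 for the array without peptide. In NOD the third-number arrays were the lowest of each group, with log2 differences of -0.91, -0.98 and -1.27 to the mean of the others. The dimmer probe set lay between 49.9 and 82.1 and gave -0.01 ± 0.18 in NOD and 0.07 ± 0.18 in B6g7.

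Ikzf1, which encodes Ikaros, gave dim signals on these arrays. Its brighter probe set lay between 27.0 and 37.6 and its dimmer between 21.7 and 31.0, below the median of every array. By the brighter the NOD peptide arrays, at 35.4, 33.0 and 32.8, did not overlap with the NOD arrays without peptide, at 32.4, 27.0 and 29.3 (0.19 ± 0.11, adjusted p = 1), as for 2.33% of all probe sets that were higher. By the dimmer the same difference was -0.08 ± 0.14. Its third-number array was below the mean of the others in 6 of 6 groups, as in 20.5% of all probe sets.

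**Figure D3:**
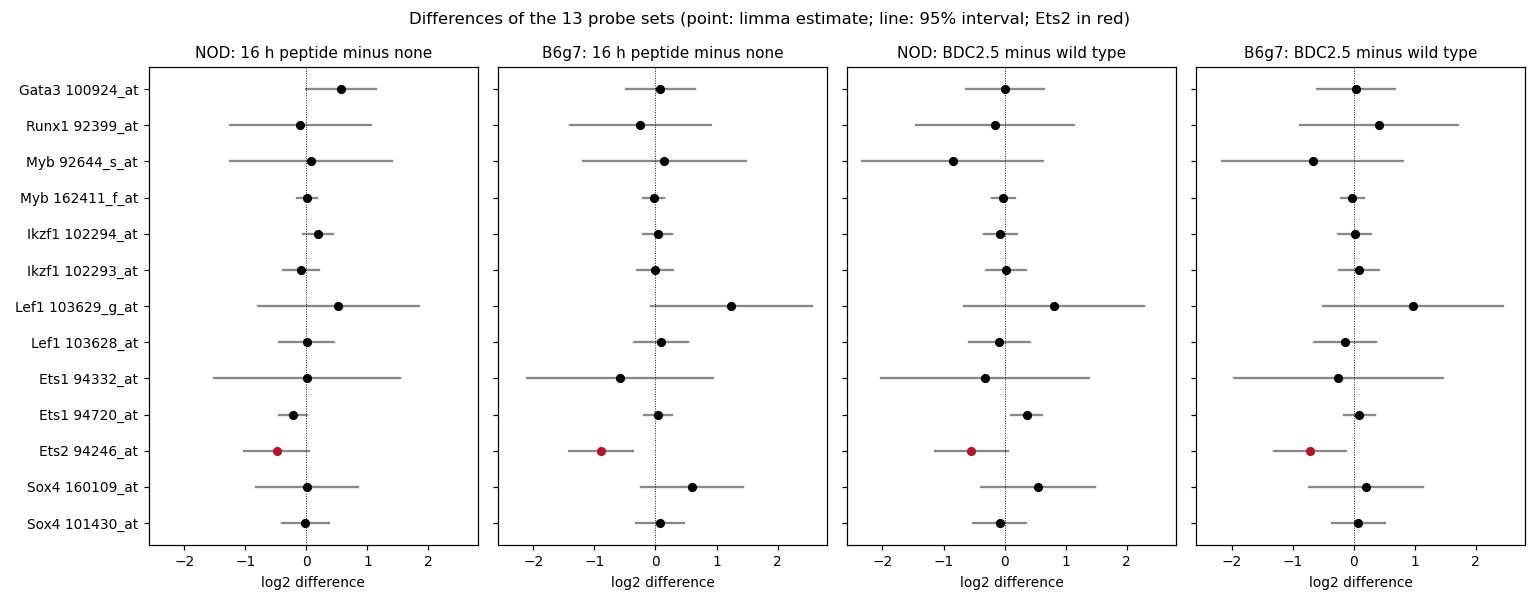
Log2 differences of the 13 probe sets (horizontal axis) with 95% intervals from limma, for the peptide response and the transgene difference in each strain. The Ets2 points, in red, lie left of 0 in all 4 comparisons, and its interval excludes 0 in the B6g7 panels and holds 0 in the NOD panels.

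The median log2 difference over the 13 probe sets was 0.01 for the peptide response in NOD, 0.04 for that in B6g7 and 0.03 for the mean, against -0.02, -0.01 and -0.02 over all probe sets. For the strain difference it was -0.04 at 16 h of peptide, 0.03 without it and 0.06 in wild-type cells, against 0.01, 0.03 and -0.03 over all probe sets. For the transgene difference it was -0.07 in NOD and 0.04 in B6g7, against 0.04 and -0.02. For the difference between the responses it was -0.07, against -0.03.

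Other genes of the same network were taken from lists with 1 probe set per gene. Of 35 measured relatives of the members (other RUNX, MYB, Ikaros, ETS, SOX and GATA family genes and their cofactors), 12 were higher and 23 lower in the mean peptide response, 0 passed, and the median was -0.05 against -0.02 over all probe sets. The smallest p-values were those of the ETS factor gene Spib (-0.22 ± 0.10), the RUNX corepressor gene Cbfa2t3 (-0.46 ± 0.21) and the ETS cofactor gene Gabpb1 (-0.16 ± 0.08), each at adjusted p = 0.998. For the strain difference without peptide, Spib gave 0.55 ± 0.14 (mean intensity 162 in NOD, 111 in B6g7, adjusted p = 0.242), and Gabpb1 (-0.17) and Gata4 (0.25) followed. For the transgene difference Fli1, an ETS factor, gave 0.42 ± 0.22 in NOD and 0.39 ± 0.22 in B6g7, with mean intensities of 45.9 in BDC2.5 and 33.7 in wild-type NOD cells, and 49.3 and 36.9 in the same order in B6g7. The others named by rule were Tle5 (0.27) and Elk3 (0.14) in NOD and Mybl1 (-0.12) and Sox5 (-0.14) in B6g7. Group means of Gabpb1, Fli1, Elk3, Mybl1 and Sox5, from 13.2 to 50.2, lay below the lowest array median of 54.7.

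Of 27 measured other regulators of thymocytes, 12 were higher and 15 lower in the mean peptide response, and 0 passed. The E protein antagonist Id2 gave 0.45 ± 0.15, the deacetylase gene Hdac7 -0.33 ± 0.13 and Stat5b 0.35 ± 0.14, each at adjusted p = 0.998. For the transgene difference in NOD, Notch3 gave -0.81 ± 0.26 and the Notch pathway gene Dtx1 -0.94 ± 0.49. Id3, an E protein antagonist induced by TCR signals, gave 1.28 ± 0.43 in NOD (mean intensity 508 in BDC2.5 cells, 212 in wild-type cells) and 0.99 ± 0.43 in B6g7 (452 and 230). Adjusted p was 0.999 in NOD and 1 in B6g7. In B6g7 Hhex (0.12, with dim group means of 24.1 to 27.1) and Gfi1 (-0.33) followed. For the strain difference without peptide the 3 named were Lmo4 (0.49), the chromatin organiser Satb1 (0.39) and Lmo2 (0.12).

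Of 24 measured genes that these factors are known to regulate, 10 were higher and 14 lower in the mean peptide response, and 0 passed. Il7r gave 0.78 ± 0.21 (adjusted p = 0.684), with mean intensities of 40.8 in NOD and 42.8 in B6g7 at 16 h, against 22.5 and 24.3 without peptide. These dim means lay below the lowest array median of 54.7. Dntt, the terminal transferase gene, gave -0.64 ± 0.19 (adjusted p = 0.985) and Ptcra, the pre-TCR alpha gene, -0.48 ± 0.15 (adjusted p = 0.998). For the transgene difference Ptcra gave -0.94 ± 0.24 in NOD and -0.53 ± 0.24 in B6g7, Dntt -0.56 ± 0.30 and -0.81 ± 0.30, Rag2 -0.79 ± 0.41 in NOD and Bcl2l1 -0.37 ± 0.16 in B6g7, with adjusted p of 0.999 in NOD and 1 in B6g7. For the strain difference without peptide 1 of the 24 genes passed, where 0.266% of all probe sets did: Cd3g was higher in NOD, with a mean intensity of 1804 in NOD and 813 in B6g7 (1.17 ± 0.22, adjusted p = 0.0459). Cd8b1 gave -1.89 ± 0.36 (adjusted p = 0.0519) and Cd27 0.85 ± 0.37. Without peptide 15 of the 24 genes were higher in NOD and 9 lower, with a median of 0.08 against 0.03 over all probe sets. In wild-type cells 11 were higher and 13 lower, with a median of -0.02 against -0.03. There 0 passed, where 0.0886% of all probe sets did. At 16 h, 17 genes were higher in NOD and 7 lower, with a median of 0.17 against 0.01 over all probe sets. At 16 h 1 gene passed, where 0.491% of all probe sets did. This was Cd8b1, which encodes the CD8 beta chain and was named after its value was seen. Its mean intensity at 16 h was 495 in NOD and 2132 in B6g7 (-2.02 ± 0.36, adjusted p = 0.0247 by limma). Its means were 709 in NOD and 2562 in B6g7 without peptide, and 667 and 2564 in wild-type cells. For Cd3g the wild-type means were 1450 in NOD and 693 in B6g7.

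Over the 16 arrays, the probe set whose log2 values went most closely with Ets2 was that of Rmnd5a (Pearson r = 0.95, and 0.91 over the 10 arrays without the third-number ones), followed by Ilvbl (0.92 and 0.87). For Myb these were Ythdf1 (0.95 and 0.90) and Gtf2h1 (0.93 and 0.86), and for Ets1 Dr1 (0.96 and 0.84) and Pnrc2 (0.95 and 0.81). For Sox4 they were Usp4 (0.96 and 0.96) and Asap1 (0.95 and 0.88), for Lef1 Cd6 (0.93 and 0.90) and Csnk2a2 (0.92 and 0.76), for Runx1 Pgap2 (0.89 and 0.90) and Rpp14 (0.88 and 0.83), and for Gata3 Bet1 (0.90 and 0.70) and 1 probe set of Bcl2 (0.88 and 0.66). For the dim Ikzf1 they were Btbd17 (0.86 and 0.85) and Il10ra (0.85 and 0.84). These are the best of 10833 probe sets, chosen for the value itself, and the arrays share the third-number split, so they describe likeness in this table only.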

How the data were processed

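RNA of 16 thymocyte samples was measured on Affymetrix arrays. The authors deposited 1 linear intensity per probe set and array, from 7.77 to 14085, already on 1 scale. The methods of background correction, summary and scaling are not given in the sources used here. Of 12488 probe sets, 66 controls were left out. Of the 12422 tested, 10833 named 1 gene in the platform annotation, 396 several and 1193 none. Intensities were taken to log2 with no pseudocount and fitted with limma 3.58.1 in R 4.3.3 (an intensity trend in eBayes after lmFit and contrasts.fit), with 1 mean per group over all 16 arrays (10 residual and 3.60 prior degrees of freedom), two-sided, with Benjamini-Hochberg adjustment over all probe sets of a comparison and a threshold of 0.05. The fit was tested on simulated data with independent errors. These held no third-number split, so the test says nothing about the effect of that split. The number of arrays limits the precision.

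All probe sets of the members were named, whatever their values, and of each list the 3 genes with the smallest p in 4 comparisons (the mean peptide response, the strain difference without peptide and the transgene difference in each strain). Likeness was the Pearson correlation over arrays, with the 2 closest genes per member. The members and lists were chosen with earlier results of these data known. Each gene of a list was read by its brightest probe set. The tried alternatives were the scaling between arrays, a pseudocount of 32, a filter (above 50 on at least 2 arrays), no trend, only the groups compared, a replicate block, the third-number arrays left out or as a covariate, and each array left out. Promoter windows came from the RefSeq table.

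The titles number the arrays, but no label pairs them. Across probe sets, which are not independent, deviations from group means correlated at 0.16 to 0.84 in the 12 same-numbered pairs of BDC2.5 groups compared, and at -0.83 to 0.39 in the 24 differently numbered ones. Such deviations cancel within a group, so positive same-numbered values by themselves push the others down. Pairs numbered 3 gave 0.57 to 0.84, those numbered 1 0.58 to 0.78 and those numbered 2 0.16 to 0.58. These values cannot separate a pairing from the third-number split. The numbers were used only to count same-numbered pairs and for the replicate block, an alternative. The main fit had no block, so its standard errors and p-values are unpaired.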

Additional observations from a re-analysis of the deposited data

How the results depend on the processing

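No member probe set was called under any alternative. Of 2898 recomputed member values, 178 changed sign, and 3 of these had a value above 1 standard error in the original fit. The Ets2 mean peptide response lay between -0.69 and -0.51, with adjusted p from 0.0657 (replicate block) to 1, and between -0.79 and -0.60 with single arrays left out. With the replicate block, the count of all probe sets called went to 3 for the peptide response in B6g7 (1 without it), 7 for the mean response (3), 69 for the strain difference without peptide (33), 129 for the one at 16 h (61) and 32 for wild-type cells (11). It changed no call of a member and moved no other count by over 1.5 times. With the third-number covariate these counts were 4, 8, 82, 144 and 47, and 1 for the peptide response in NOD (0). Without the third-number arrays the B6g7 peptide count was 3, that for the strain difference at 16 h 36 and that for the transgene difference in NOD 0 (7). Quantile normalization and the pseudocount each gave 2 for the B6g7 peptide response, the fit without a trend 0, and the filter 4 for the transgene difference in NOD. With only the groups compared, the counts were 0 for the B6g7 peptide response, 22 for the strain difference at 16 h and 0 for the other strain differences, and 0 for the transgene difference in NOD and 1 for that in B6g7 (10). With single arrays left out, the count lay between 0 and 10 for the B6g7 peptide response, 0 and 10 for the mean response, 15 and 58 for the strain difference at 16 h, 15 and 43 for that without peptide, 2 and 14 for the wild-type strain difference, 2 and 8 for the transgene difference in NOD and 6 and 10 for that in B6g7. Leaving 1 wild-type array assumes that it varies like the other groups. The cause of these changes was not tested. With all probe sets of a gene averaged, the counts of higher genes in the mean peptide response were 12 of 35 relatives, 11 of 27 regulators and 10 of 24 target genes.

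Wide within-group spread limits Myb, Ets1, Runx1 and Lef1, and low signal limits Ikzf1, Runx1 and the dimmer probe sets of Myb, Ets1 and Sox4. With no detection calls, no absence can be stated.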
